A study of Mus musculus with 6 samples.

Results

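The genes described here encode the enzymes that bring pyruvate into the citric acid cycle, turn the cycle and move carbon into and out of it. They were taken by name from the table of counts. The set comprised the subunits of the pyruvate dehydrogenase complex, the cycle's own enzymes apart from aconitase and succinate dehydrogenase, the enzymes of the malate-aspartate shuttle, the malic enzymes and a few enzymes that feed the cycle or work beside it. All 28 were found among the 54532 genes listed, and all 28 had enough counts to be tested with 14866 genes in total. RNA was sequenced from whole hearts of C57BL/6 mice aged 3 months, all male per the study's methods. Mice 368, 369 and 370 had the genotype α1 r/r α2 s/s, in which Na/K-ATPase α1 is the rodent form that is naturally resistant to cardiotonic steroids (CTS). Mice 379, 380 and 381 had the genotype α1 s/s α2 s/s, in which α1 is a knock-in form that is sensitive to CTS. Both genotypes shared the sensitive α2 form, so α1 was the allele that differed, and it differed in every tissue of the animal rather than in the heart alone. The study's methods name littermates as the controls, its RNA-seq section calls them age-matched, and the labels name no treatment. The 3 hearts of each genotype are called resistant and sensitive hearts. The comparison asks how the hearts' transcripts differ when α1 is made sensitive to CTS.

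Pyruvate dehydrogenase converts pyruvate to acetyl-CoA inside mitochondria, and citrate synthase joins that acetyl-CoA to oxaloacetate. The cycle then oxidizes citrate back to oxaloacetate through NAD-dependent isocitrate dehydrogenase, 2-oxoglutarate dehydrogenase, succinyl-CoA synthetase, fumarase and malate dehydrogenase, and the electrons go to the respiratory chain. The heart depends on this route for most of its ATP. The malate-aspartate shuttle carries reducing equivalents from cytosolic NADH into mitochondria. Malic enzymes convert malate to pyruvate. The NADP-dependent malic enzymes, Me1 and Me3, and the NADP-dependent isocitrate dehydrogenases are sources of NADPH. Pyruvate carboxylase, glutamate dehydrogenase and alanine aminotransferase replenish or drain the cycle's intermediates.

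Total counts were between 19309312 and 20470065 per heart. Cardiomyocyte markers were abundant in all 6 hearts, with a summed level of 48342 to 59206 CPM (counts scaled to library size by edgeR's TMM factors). The skeletal muscle markers summed to at most 0.669 CPM, and Myh4 and the brown adipocyte gene Ucp1 had no count in any heart. Within a genotype the hearts differed beyond counting noise (chi-square per gene between 6.86 and 13.2), so each was counted as a replicate. The p-values of the main comparison are set against the spread between these 6 hearts. In RNA from whole hearts, fewer cells of a type and less RNA per cell cannot be told apart. No batch or date was given in the labels.

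Where these genes start was taken from the RefSeq promoter windows on GRCm38.p6, which matched 26 of the 28 genes, Idh3a and Me2 being the others. Of the members, 6 (21.4%) had another protein-coding gene starting in the opposite direction within 1000 bases of their own start, a head-to-head arrangement found for 9.81% of the 13114 protein-coding genes tested. The pairs were Pdhx with Apip, Idh3g with Ssr4, Dlst with Prox2, Mdh2 with Styxl1, Idh1 with Pikfyve and Glud1 with Shld2. The sequences upstream of Idh3g and Idh1, which lie between head-to-head genes, and of Me1 are shown because these were among the enzyme genes with the smallest p in the comparison of genotypes. Each is written 5′ to 3′ on the minus strand, up to the base before the gene's deposited start, and capitals mark a match to the YY1 motif.
Idh3g, chrX:73786898-73787027: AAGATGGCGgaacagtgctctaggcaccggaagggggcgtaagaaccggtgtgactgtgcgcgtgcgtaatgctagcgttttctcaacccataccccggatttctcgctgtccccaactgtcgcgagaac
Idh1, chr1:65186501-65186682: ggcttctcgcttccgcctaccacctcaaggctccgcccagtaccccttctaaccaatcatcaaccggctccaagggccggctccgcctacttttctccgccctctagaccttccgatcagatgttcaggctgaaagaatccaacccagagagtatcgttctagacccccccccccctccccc
Me1, chr9:86695954-86696164: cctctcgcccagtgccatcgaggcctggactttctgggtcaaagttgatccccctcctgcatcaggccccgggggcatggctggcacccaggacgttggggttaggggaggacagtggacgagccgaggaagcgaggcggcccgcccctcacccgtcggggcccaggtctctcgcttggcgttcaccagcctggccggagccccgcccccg
The Idh3g stretch is the whole of the 130 bases between Idh3g and Ssr4, and the Idh1 stretch is the whole of the 182 bases between Idh1 and Pikfyve. G and C made up 57.7%, 59.9% and 70.6% of the 3 stretches.

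Motifs of 4 factors known to act on nuclear genes of mitochondrial proteins were searched on both strands in windows from 250 bases before to 50 bases after the start. The YY1 motif AAGATGGCG was found in Idh3g, beginning 130 bases before its start, beside the first base of Ssr4, and in no other member, against 1.80% of all 20484 windows. The GABP motif CCGGAAGTG was found in Dlst, beginning at the base before the start, and in no other member, against 2.58% of all windows. The ERR motif TNAAGGTCA was present in 1.13% of all windows and the NRF1 motif GCGCATGCG in 2.18%, and neither was found in a member's window. These matches describe letters in a short window and do not locate a bound site.

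The 28 genes differed widely in level. Per kilobase of gene length, the cytosolic malate dehydrogenase gene Mdh1 had the highest mean level over the 6 hearts (742 CPM per kb) and the mitochondrial NAD-dependent malic enzyme gene Me2 the lowest (4.40 CPM per kb), a ratio of 169. After Mdh1 came Idh2, the mitochondrial NADP-dependent isocitrate dehydrogenase gene (637 CPM per kb), and Ogdh, which encodes the E1 subunit of 2-oxoglutarate dehydrogenase (351 CPM per kb). The pyruvate dehydrogenase and cycle genes lay between 34.3 CPM per kb for Pdhx, the gene of the E3-binding protein, and Ogdh. Of the anaplerotic and side enzymes, Glud1 had 38.2 CPM per kb, slightly above Pdhx. The others were lower, with 8.24 for Pcx, 7.70 for Gpt2 and 6.12 for D2hgdh, and the malic enzyme gene Me3 had 5.05.

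**Figure D1:**
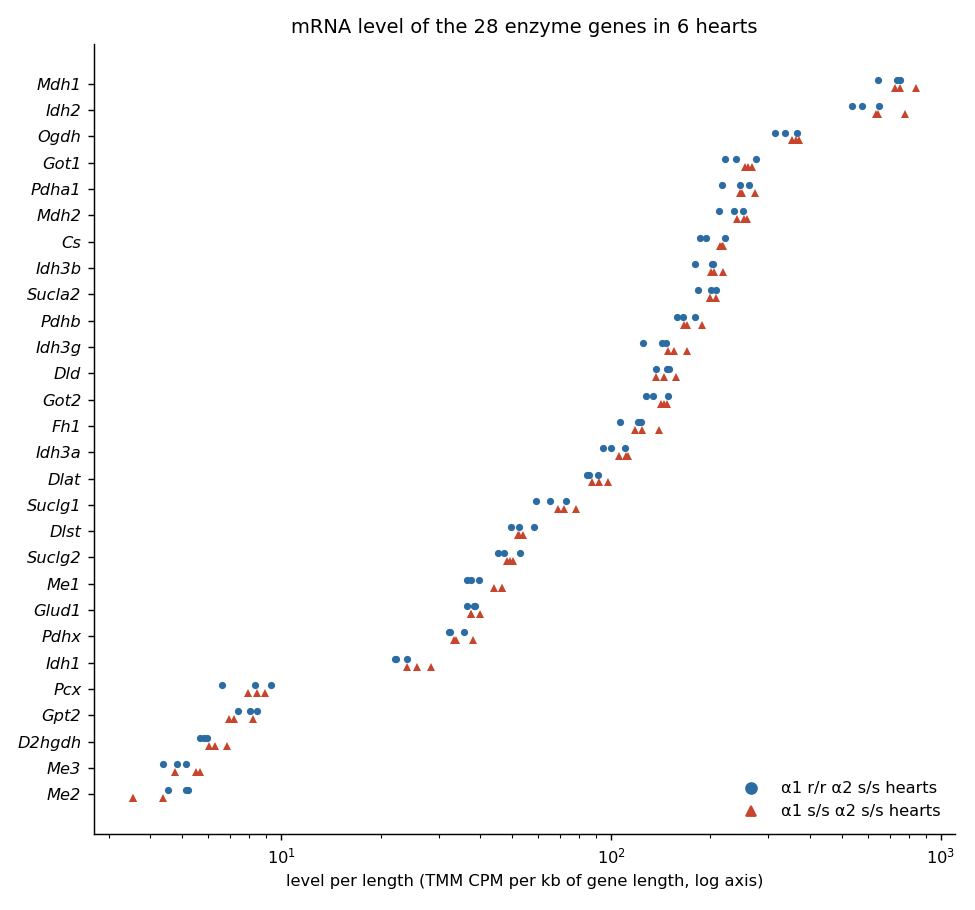
Level of each of the 28 enzyme genes in each heart, as TMM-scaled CPM per kb of gene length on a log axis, with circles for resistant hearts and triangles for sensitive hearts. The genes are ordered from Mdh1 (mean 742) to Me2 (mean 4.40), and the points of the genotypes lie close together beside the spread between genes.

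All of the members together took 1.59% ± 0.0639 (SD, n = 3) of the counts of resistant hearts and 1.61% ± 0.0266 (SD, n = 3) in sensitive hearts. The shares in single hearts were 1.60%, 1.52% and 1.64% in the resistant hearts and 1.60%, 1.59% and 1.64% in the sensitive hearts. The genotypes therefore overlapped in the share of transcripts given to these enzymes.

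The enzyme genes moved together from heart to heart within a genotype. The lowest of the 6 hearts was mouse 369 for 22 of the 28 genes, and the highest was mouse 381 for 14 and mouse 370 for 7. Taken as the mean over the 28 genes of log2 CPM relative to each gene's own mean, the resistant hearts stood at -0.04, -0.13 and 0.05 and the sensitive hearts at 0.01, -0.00 and 0.11. The resistant heart of mouse 370 had 23 of the 28 genes above their own mean, as against 7 and 2 in the hearts of mice 368 and 369. Among the sensitive hearts, 15, 14 and 27 genes were above their mean in mice 379, 380 and 381. Mice 369 and 370, which share a genotype, stood further apart than the means of the genotypes.

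**Figure D2:**
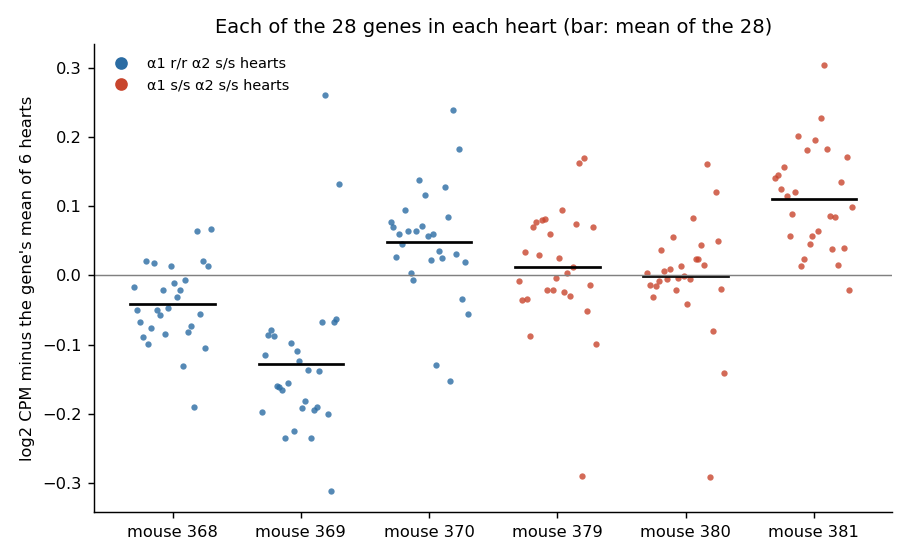
Each point is 1 of the 28 enzyme genes in 1 heart, as log2 CPM minus that gene's mean over the 6 hearts, and the bar is the mean of the 28. The bars stand at -0.04, -0.13 and 0.05 in the resistant hearts (blue) and at 0.01, -0.00 and 0.11 in the sensitive hearts (red), so that mouse 369 lies low and mice 370 and 381 lie high.

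Marker genes of the heart's cell types moved over the same hearts. The summed level of the 8 cardiomyocyte markers was 51807, 48342 and 59206 CPM in the resistant hearts and 54360, 53036 and 57543 CPM in the sensitive hearts. Like the enzymes, it was lowest in mouse 369 and high in mice 370 and 381, although mouse 370 was here above mouse 381. The macrophage markers ran the other way, with 219, 294 and 191 CPM against 195, 185 and 148 CPM. The endothelial markers summed to 944, 990 and 839 CPM against 878, 862 and 698 CPM, and the fibroblast markers to 1209, 1307 and 1113 CPM against 1144, 1133 and 988 CPM. The smooth muscle and pericyte markers summed to 920 to 1004 CPM in resistant hearts and 846 to 967 CPM in sensitive hearts. Erythroid markers summed to 536 to 1272 CPM in resistant and 401 to 3187 CPM in sensitive hearts, and white adipocyte markers to 3.37 to 5.54 and 3.73 to 12.2 CPM. The fitted difference was above 0 for 6 of 8 cardiomyocyte markers, 2 of 7 fibroblast, 1 of 6 endothelial, 0 of 6 smooth muscle and pericyte and 0 of 6 macrophage markers. Of all genes, 48.4% were above 0. No gene of these lists passed the threshold in edgeR, which 1.44% of all genes did. An unadjusted p under 0.05 was reached by 4 fibroblast, 2 endothelial, 3 smooth muscle and pericyte, 3 macrophage, 1 white adipocyte and 0 cardiomyocyte markers. Among all genes 14.5% reached it. DESeq2 called Col1a1, Acta2, Mrc1 and C1qa, with adjusted p of 0.0122, 0.0345, 0.0067 and 0.0402, all lower in sensitive hearts. It called 3.56% of the genes to which it gave an adjusted p. The part of cell composition in the enzyme values was not tested.

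The genotypes were compared gene by gene with edgeR's quasi-likelihood test. No enzyme gene passed an adjusted p of 0.05 (0 of 28), while 1.44% of all genes tested did. Among the 8270 genes at or above the mean level of the least expressed member, 2.26% did. An unadjusted p under 0.05 was reached by 5 of the 28 (17.9%), namely Me1, Me2, Idh3g, Idh1 and Idh2, against 14.5% of all genes. In DESeq2, 1 of the 28 (3.57%) was called, Me1 with an adjusted p of 0.00379, against 3.56% of the genes for which DESeq2 gave an adjusted p. These shares are near those of all genes.

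The direction was more uneven than the calls. The fitted log2 fold change of sensitive over resistant hearts was above 0 for 25 of the 28 enzyme genes (89.3%), whereas 48.4% of all genes were above 0. The members below 0 were Dlst, Gpt2 and Me2. With the counts scaled to library totals alone, 18 of the 28 were above 0 and the median of all genes was -0.09. Without mouse 369 it was 20 of 28, and without mouse 370 it was 26. The median log2 fold change of the members was 0.09 (all genes, -0.01), and it was 0.05 without mouse 369, 0.16 without mouse 370, 0.06 without mouse 381 and 0.01 with library totals alone. The 28 values are not independent, since the genes moved together from heart to heart.

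Some properties of the libraries separated the genotypes. The share of counts on genes of the mitochondrial genome was 23.9%, 23.4% and 24.4% in resistant hearts and 25.0%, 25.3% and 26.0% in sensitive hearts. The TMM factors were 1.04, 1.06 and 0.989 against 0.985, 0.986 and 0.945, and 22515, 22139 and 22237 genes had a count against 22039, 21298 and 21234. None of these 3 measures overlapped between the genotypes, and their part in the direction of the enzyme genes was not tested.

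The differences were small and closely bounded. The median size of the log2 fold change was 0.10 for the enzymes and 0.14 for all genes. The median standard error was also smaller for the enzymes, 0.08 against 0.13, so these sizes do not set the enzymes apart. For 27 of the 28 the 95% confidence interval lay within 0.5 of 0 on the log2 scale, and for all 28 within 1. The highest upper bound was 0.42, for Idh2, and the lowest lower bound was -0.67, for Me2. These genes were well counted, with 166 to 41572 counts per gene and heart. In 26 of the 28 the range of the hearts within at least 1 genotype was larger than the difference between genotypes, and the exceptions were Me1 and Me2. The range of the resistant hearts was larger in 24 and that of the sensitive hearts in 20.

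**Figure D3:**
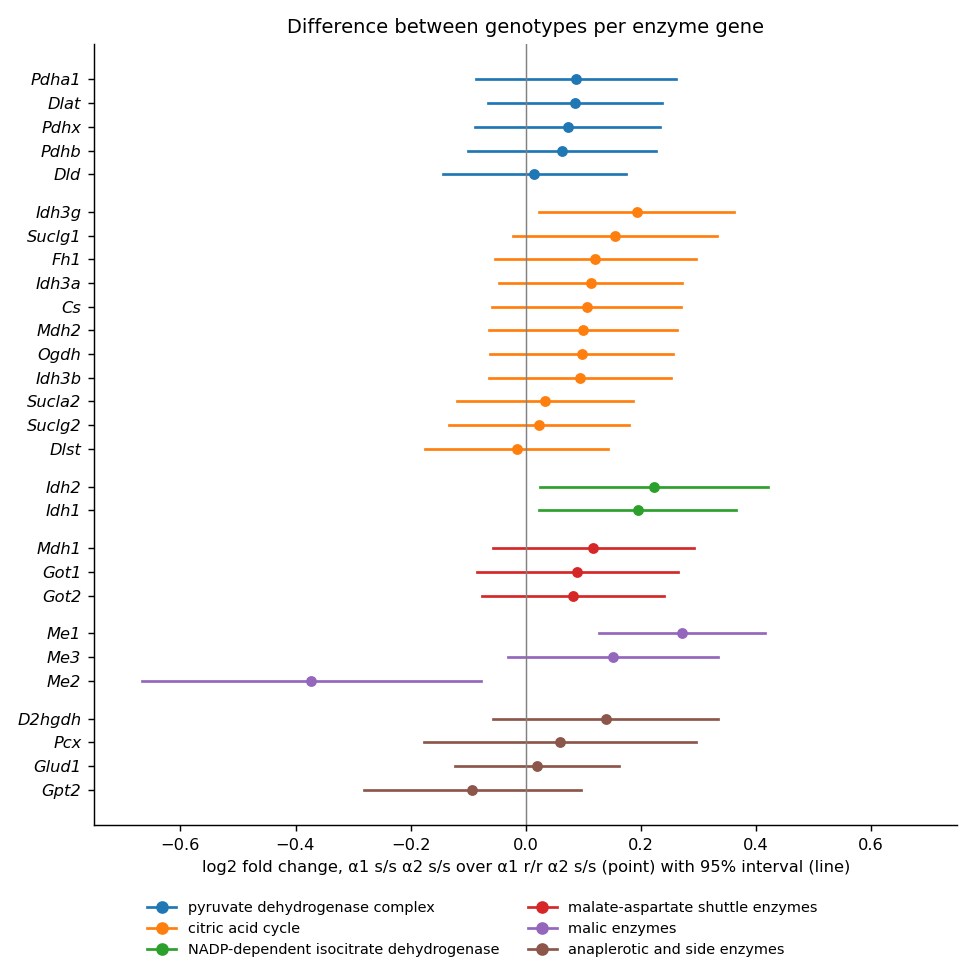
Log2 fold change of sensitive over resistant hearts for each enzyme gene (point) with its 95% interval (line), from edgeR, grouped and coloured by role. Most points lie between 0 and 0.2, Me1 stands highest at 0.27 and Me2 lowest at -0.37, and no gene passed the adjusted threshold.

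Hearts of the genotypes did not overlap in CPM for 4 of the 28 genes (14.3%), against 20.0% of all genes. Idh3g, Me1 and D2hgdh were higher and Me2 lower in every sensitive heart. The count was 2 with library totals alone, where 21.1% of all genes did not overlap. It was 19 without mouse 370 and 11 without mouse 380, where 33.1% and 31.0% of all genes did not overlap. It was 5 when any other heart was left out, where 28.3% to 31.6% of all genes did not overlap.

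The pyruvate dehydrogenase complex was represented by all 5 of its structural genes. Pdha1, the X-linked E1α gene (chromosome X, 160122209 to 160138413, on GRCm38), had 916, 808 and 978 CPM in resistant hearts and 922, 929 and 1021 CPM in sensitive hearts. The heart of mouse 370 stood above 2 of the sensitive hearts, so the genotypes overlapped (log2 fold change 0.09, SE 0.08, edgeR adjusted p = 0.670). Pdhb, the E1β gene, had means of 647 ± 42.4 and 676 ± 47.1 CPM (SD, n = 3). Dlat, the E2 acetyltransferase gene, had 425 ± 17.9 and 451 ± 24.6 CPM. Pdhx had 131 ± 7.68 and 138 ± 10.2 CPM, and Dld, the E3 gene that pyruvate and 2-oxoglutarate dehydrogenase share, had 534 ± 25.8 and 540 ± 38.4 CPM. All 5 fitted values were above 0, from 0.01 for Dld to 0.09 for Pdha1, with a median of 0.07 and adjusted p of at least 0.628. The E1 subunits, which join in equal number in the complex, kept a ratio per length of Pdha1 to Pdhb between 1.37 and 1.48 in the 6 hearts.

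Of the 11 genes of the citric acid cycle proper, 10 had a fitted value above 0, and the median was 0.10. Ogdh (chromosome 11, 6291633 to 6356642) was the highest of them per length, with 1837, 1716 and 1999 CPM in resistant hearts and 2022, 1986 and 1929 CPM in sensitive hearts. Its genotypes overlapped through mouse 370 (log2 fold change 0.10, SE 0.07, adjusted p = 0.595). Cs, the citrate synthase gene, had 1160 ± 109 and 1249 ± 14.4 CPM, with a log2 fold change of 0.11 and an edgeR adjusted p of 0.568. Dlst, the E2 succinyltransferase partner of Ogdh, stood at 512 ± 43.1 and 506 ± 9.15 CPM, the only cycle gene with a value under 0 (-0.02).

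NAD-dependent isocitrate dehydrogenase is a mitochondrial enzyme built from α, β and γ subunits. The γ subunit gene Idh3g (ENSMUSG00000002010, chromosome X, 73778963 to 73786897), whose upstream sequence holds the YY1 motif, had 384, 338 and 396 CPM in resistant hearts and 421, 401 and 458 CPM in sensitive hearts. Every sensitive heart was above every resistant heart, although 396 and 401 CPM were nearly equal. The log2 fold change was 0.19 (SE 0.08, 95% interval 0.02 to 0.36, unadjusted p = 0.028, edgeR adjusted p = 0.276). Its partners Idh3a and Idh3b had log2 fold changes of 0.11 and 0.09. The ratio of Idh3a to Idh3g per length overlapped between the genotypes, with a log2 difference of -0.08 (exact permutation test, two-sided p = 0.3, n = 3 each). Ssr4, the head-to-head neighbour of Idh3g, had 28.7 to 31.2 CPM in resistant hearts and 27.9 to 39.7 CPM in sensitive hearts (log2 fold change 0.15, adjusted p = 0.577).

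The later steps of the cycle showed the same small values. Succinyl-CoA synthetase joins the α subunit Suclg1 with either the ATP-forming β subunit Sucla2 or the GTP-forming β subunit Suclg2. Suclg1 had 304 ± 31.3 and 338 ± 22.3 CPM (log2 fold change 0.15, adjusted p = 0.411), Sucla2 788 ± 50.8 and 806 ± 19.2 CPM (0.03) and Suclg2 225 ± 18.5 and 228 ± 5.27 CPM (0.02). The ATP-forming subunit predominated in these hearts, with a ratio of Sucla2 to Suclg2 per length of 4.25, 4.04 and 3.91 in resistant hearts and 4.12, 4.04 and 4.11 in sensitive hearts. The ratio did not differ between genotypes beyond its spread (log2 difference 0.01, exact permutation test, two-sided p = 0.8, n = 3 each). Fumarase (Fh1) had 397 ± 31.1 and 432 ± 37.2 CPM and mitochondrial malate dehydrogenase (Mdh2) 833 ± 69.7 and 892 ± 31.3 CPM, with log2 fold changes of 0.12 and 0.10.

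The NADP-dependent isocitrate dehydrogenases are separate enzymes from the one that turns the cycle, Idh1 in the cytosol and peroxisomes and Idh2 in mitochondria. Idh1 (ENSMUSG00000025950, chromosome 1, 65158616 to 65186500) had 66.6, 61.4 and 61.8 CPM in resistant hearts and 66.5, 71.6 and 79.1 CPM in sensitive hearts. The heart of mouse 368 matched the lowest sensitive heart, and the remaining resistant hearts were below all of them. The log2 fold change was 0.19 (SE 0.08, 95% interval 0.02 to 0.37, unadjusted p = 0.029, edgeR adjusted p = 0.276). Idh2 (ENSMUSG00000030541, chromosome 7, 80094846 to 80115392) had 1495, 1391 and 1678 CPM against 1642, 1665 and 2021 CPM. Mouse 370 again stood above the lowest sensitive hearts, and mouse 381 stood well above the rest. The log2 fold change was 0.22 (SE 0.09, 95% interval 0.03 to 0.42, unadjusted p = 0.030, edgeR adjusted p = 0.281). It ranged from 0.12 to 0.30 when each heart was left out in turn. Without a filter on low counts the edgeR adjusted p of Idh2 was 0.0442, a setting whose limit is described for Pdk4 below. The mitochondrial form exceeded the cytosolic form 26.0 times per length, and this ratio overlapped between genotypes (log2 difference 0.03, exact permutation test, two-sided p = 0.8, n = 3 each).

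The malate-aspartate shuttle enzymes held high levels. Mdh1 (chromosome 11, 21556787 to 21572367) had 1891, 1659 and 1933 CPM in resistant hearts and 1860, 1932 and 2156 CPM in sensitive hearts, which overlapped (log2 fold change 0.12, SE 0.08, adjusted p = 0.548). The aspartate aminotransferase genes Got1 (cytosolic) and Got2 (mitochondrial) had 622 ± 70.8 and 660 ± 53.2 CPM in resistant hearts and 662 ± 17.0 and 699 ± 14.7 CPM in sensitive hearts, with log2 fold changes of 0.09 and 0.08. The mitochondrial form made up the smaller share per length in both pairs, with mean ratios of 0.326 for Mdh2 to Mdh1 and 0.558 for Got2 to Got1. Without the division by length, Got2 had 1.06 times the counts of Got1. Neither ratio differed between genotypes beyond its spread (log2 differences -0.02 and -0.01, exact permutation tests, two-sided p = 0.8 and 0.9, n = 3 each).

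The malic enzymes held both ends of the set. Me1, the cytosolic NADP-dependent enzyme (ENSMUSG00000032418, chromosome 9, 86581371 to 86695953), had 141, 153 and 144 CPM in resistant hearts and 180, 179 and 170 CPM in sensitive hearts. All sensitive hearts were above all resistant hearts, and the gap between the genotypes was wider than the range within either. The log2 fold change was 0.27 (SE 0.07, 95% interval 0.13 to 0.42), which is 20.7% higher on the linear scale. Its unadjusted p was 0.00115 and its edgeR adjusted p 0.0623, the smallest of the 28, at rank 274 among the genes tested. DESeq2 gave an adjusted p of 0.00379 and edgeR's robust prior 0.0398. Fitted without a filter, edgeR gave 0.0253, with the limit described for Pdk4 below. The edgeR adjusted p was 0.0803 to 0.256 when a heart was left out, while the log2 fold change stayed between 0.25 and 0.31. With library totals alone it was 0.19 (adjusted p = 0.212).

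Me2, the mitochondrial NAD-dependent enzyme (ENSMUSG00000024556, chromosome 18, 73770040 to 73815392), had 11.2, 12.8 and 12.6 CPM in resistant hearts and 8.74, 8.73 and 10.8 CPM in sensitive hearts. The genotypes did not overlap, with mouse 381 closest to the resistant hearts. The log2 fold change was -0.37 (SE 0.14, 95% interval -0.67 to -0.08, unadjusted p = 0.017, edgeR adjusted p = 0.220), and it stayed between -0.48 and -0.32 when each heart was left out. Me2 was the least counted member, with a gene length in the deposited table of 2455 bases where the exons in GENCODE M21 cover 7252, so its level per length depends on which is used. Me3, the mitochondrial NADP-dependent enzyme, had 70.0 ± 5.61 and 77.7 ± 7.11 CPM (log2 fold change 0.15, adjusted p = 0.439).

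The ratio of Me3 to Me1 overlapped (log2 difference -0.12, exact permutation test, two-sided p = 0.5, n = 3 each). In all, 7 ratios between related enzymes were tested, each had a Benjamini-Hochberg adjusted p of 0.9, and 3 hearts against 3 cannot give an exact p under 0.1.

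**Figure D4:**
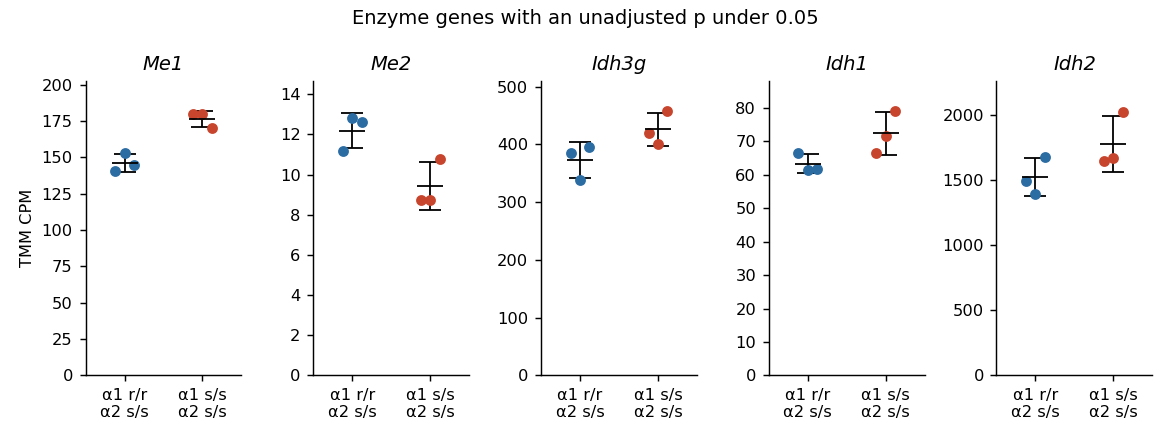
TMM-scaled CPM per heart (points) with the mean and SD (bars, n = 3) for the 5 enzyme genes with an unadjusted p under 0.05, on axes that start at 0. The genotypes do not overlap for Me1 (141 to 153 against 170 to 180), Me2 and Idh3g, and they overlap for Idh1 and Idh2.

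The anaplerotic and side enzymes had a median log2 fold change of 0.04, with 3 of 4 above 0. Glud1, which links glutamate to 2-oxoglutarate (chromosome 14, 34310727 to 34345265), had 162, 154 and 163 CPM in resistant hearts and 169, 159 and 159 CPM in sensitive hearts. These overlapped (log2 fold change 0.02, SE 0.07, 95% interval -0.12 to 0.16, adjusted p = 0.925), and the sign turned with library totals alone and without mouse 369 or mouse 379. D2hgdh, which oxidizes D-2-hydroxyglutarate to 2-oxoglutarate (chromosome 1, 93824909 to 93852348), had 24.3, 24.9 and 25.5 CPM against 25.9, 27.0 and 29.4 CPM. Its hearts did not overlap, but the gap was narrow (log2 fold change 0.14, SE 0.09, adjusted p = 0.523). Gpt2, the mitochondrial alanine aminotransferase gene, had 44.9 ± 2.93 and 42.1 ± 3.82 CPM (log2 fold change -0.09). Pcx, the pyruvate carboxylase gene, had 37.4 ± 6.32 and 39.0 ± 2.33 CPM (0.06), and the overlapping gene Lrfn4 on the opposite strand had 28.0% as many counts, which unstranded counting could mix.

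Genes that control or supply these enzymes were described from a list of 62, all of which were tested. Of these, 42 had a fitted value above 0, against 48.4% of all genes, and the median was 0.06. In edgeR 12 had an unadjusted p under 0.05, against 14.5% of all genes, and 1 passed the threshold, which 1.44% of all genes did. That gene was Pdk4, a kinase that phosphorylates and inhibits pyruvate dehydrogenase. It had 999, 1126 and 455 CPM in resistant hearts and 2114, 1351 and 2123 CPM in sensitive hearts. The log2 fold change was 1.12 (SE 0.24, adjusted p = 0.0333), while DESeq2 gave an adjusted p of 0.0977, the robust prior 0.366 and library totals alone 0.0824. It was 0.0602 without mouse 368, 0.105 without mouse 379 and 0.101 without mouse 381. Without a filter edgeR gave 3.72e-53, far below every other setting although the hearts of each genotype scattered. Adjusted p-values of that setting are therefore not taken as support for any gene. The heart of mouse 370, low in Pdk4, was high in Pdha1, whose protein the kinase phosphorylates. The heart of mouse 381 was the highest of all in both, with 2123 CPM of Pdk4 and 1021 CPM of Pdha1.

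The remaining regulators and suppliers did not pass the threshold in edgeR with TMM factors and the filter. Glul, the glutamine synthetase gene, had 356, 351 and 406 CPM against 458, 440 and 515 CPM, with no overlap (log2 fold change 0.34, adjusted p = 0.0542, and 0.000857 in DESeq2). Other edgeR settings gave Glul an adjusted p of 0.0253 with the robust prior and 0.0455 without globin and mitochondrially encoded genes. It was 0.0523 with RLE factors, 0.061 with upper-quartile factors and 0.0683 with library totals alone. Leaving out mouse 370 gave 0.028, and leaving out any other heart gave 0.0694 to 0.22. The 0.00041 without a filter is not taken as support. DESeq2 and the robust prior thus called Glul and not Pdk4. Ppargc1b, a coactivator of mitochondrial genes, had 24.2, 28.6 and 30.6 CPM against 23.0, 21.7 and 20.6 CPM (-0.35, adjusted p = 0.129). Yy1, a match to whose motif lies between Idh3g and Ssr4, had 60.4, 60.6 and 57.0 CPM against 69.8, 66.5 and 72.5 CPM (0.23, adjusted p = 0.145). Pdp2, a phosphatase that activates pyruvate dehydrogenase, had 43.5 ± 6.04 and 35.7 ± 2.23 CPM (-0.28, adjusted p = 0.204).

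By group, the fitted value was above 0 for 8 of the 10 genes of succinate dehydrogenase, its assembly factors and aconitase (median 0.06) and for 7 of the 8 genes of propionyl-CoA and branched-chain entry (median 0.12). It was above 0 for 5 of 9 mitochondrial carriers (0.08), 5 of 6 genes of lipoic acid synthesis (0.09), 8 of 10 genes of glutamine, phosphoenolpyruvate and citrate use (0.13), and 4 of 7 kinases, phosphatases and their regulator (0.02). Among 12 regulators of mitochondrial gene expression, 5 were above 0, and the median was -0.04. Of all genes, 48.4% were above 0.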

How the data were processed

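RNA from 6 whole hearts, 3 of each genotype, was sequenced, and groups were taken from the labels. The authors deposited raw counts of reads per gene, with total counts of 19309312 to 20470065 per heart. The submitters' processing notes name fastp, STAR, featureCounts and mm10 without versions, and whether strand was used is not given in the sources used here. A second deposited table, the authors' own comparison (fold changes and p-values), was not used. All count columns were mapped to a heart.

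Counts were analysed in R 4.3.3 with edgeR 4.0.16 (TMM factors, filterByExpr with a minimum count of 10 and a minimum total of 15, quasi-likelihood test, Benjamini-Hochberg adjustment over the 14866 genes tested, threshold 0.05). The standard error is the log2 fold change divided by the square root of F, and the biological coefficient of variation was 11.1%. CPM per kb used the deposited gene length. Members were compared with annotation in GENCODE M21, where 27 had identical coordinates and 26 the deposited length. Ratios of related enzymes were compared by exact permutation tests. The procedures were checked on simulated data with known changes. At a log2 fold change of 0.5 in either direction, edgeR recovered 38% of the changed genes and DESeq2 37%. At 1 they recovered 81.8% and 74%. The changed genes were drawn from all genes tested, so these shares are not particular to the enzymes.

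The members and lists were chosen with earlier results of these data known. Values in every heart are given for members with an unadjusted p under 0.05 and, in each role group, for the member with the highest level per length and the one with the largest difference, and for other pathway genes at most the 5 with the smallest p. The head-to-head neighbours were looked up after the data were seen. Alternatives were DESeq2 1.42.0, upper-quartile or RLE factors, testing every counted gene, a minimum of 10 counts per heart, removal of mitochondrially encoded and globin genes, the robust prior, an adjusted p under 0.1 and leaving out each heart. Scaling to library totals alone was added after the data were seen.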

Additional observations from a re-analysis of the deposited data

How the results depend on the processing

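No enzyme gene was called in edgeR with RLE or upper-quartile factors, with at least 10 counts in every heart, without globin and mitochondrially encoded genes, with library totals alone, or when any heart was left out (0 to 0). There was 1 with DESeq2 (400 of 11244 genes called), 1 with the robust prior (268 of 14866), 1 at an adjusted p under 0.1 (402 of 14866) and 2 without a filter (618 of 28183). Me1 was called by DESeq2, the robust prior and no filter, and Idh2 by no filter. The calls without a filter are not taken as support, since that edgeR setting gave Pdk4 an adjusted p of 3.72e-53. Of the other pathway genes, 1 was called, against 3 without a filter, 2 without globin and mitochondrially encoded genes and 2 at an adjusted p under 0.1. It was 0 with library totals alone and 0 to 2 when a heart was left out. Among all genes 214 of 14866 were called, against 213 of 14820 without globin and mitochondrially encoded genes and 183 of 14866 with library totals alone. When a heart was left out, 80 to 158 genes were called, of 15276 to 15395 tested. Enzyme genes whose hearts did not overlap numbered 4, against 2 with library totals alone and 5 to 19 when a heart was left out. The shares of all genes were 20.0%, 21.1% and 28.3% to 33.1%. Fewer hearts make such gaps more common among all genes. An unadjusted p under 0.05 in edgeR was reached by 5 enzyme genes, and by 14.5% of all genes. Among the enzymes it was 1 without mouse 369, 12 without mouse 370 and 2 without mouse 381. The share of all genes was not counted in those fits, so these 3 counts cannot be read as particular to the enzymes. The cause of the changes with scaling was not tested. No listed log2 fold change reversed with a call, and the 7 enzyme ratios moved by less than their spread. No paired analysis was made, because the labels used here give each mouse a number and name no litter or pair. The unadjusted 95% intervals had a median half-width of 0.16 on the log2 scale over the enzymes. This is not a detection limit, and differences of 0.19 to 0.27 were not called in edgeR.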
